A study of Mus musculus with 20 samples.

Results

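Cholesterol and fatty acid synthesis genes were followed through mouse liver and liver tumours on expression arrays. The set holds 31 genes listed by name: the enzymes that build cholesterol from acetyl-CoA, the proteins that sense sterols and switch these enzymes on, and the enzymes of fatty acid synthesis. Each gene was read from the probe set that carried its symbol alone and had the highest mean over the 20 arrays, out of 18193 genes read in this way. Of the 31 genes, 30 had such a probe set. Acat2, which encodes an acetyl-CoA acetyltransferase, had none and was not analysed here. No gene was removed for a low level.

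All samples came from male C57BL/6 mice with a conditional APCko genotype, a knockout of the tumour suppressor Apc that can be triggered in the adult animal. Per the sample protocols, tamoxifen (0.75 mg, injected once) was given at an age of 6 weeks, and 1 week later the mice went on standard chow or on chow with 0.05% phenobarbital for 9 months. This sedative turns on the receptor CAR in liver cells and acts as a promoter of rodent liver tumours. The 4 groups held 5 arrays each: non-tumour liver on chow (H2O_NT, called untreated liver), non-tumour liver on phenobarbital (PB_NT, called PB liver), carcinomas on chow (APCko_Carcinoma) and adenomas on phenobarbital (APCko_Adenoma). The labels name untreated liver as the control of the carcinomas and PB liver as the control of the adenomas. Carcinomas and adenomas thus differ in diet as well as in stage, which cannot be told apart, and wild-type liver was not analysed here. The design text names the carcinogen DEN where the protocols name tamoxifen, and the group label names H2O where the protocols name chow. Neither difference was settled, and the labels name no Cre line. The labels do not say whether samples came from separate mice, so p-values reflect only how these arrays spread, which may in part be technical.

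Cholesterol synthesis starts with the mevalonate pathway, which turns acetyl-CoA into isoprenoid units, and goes on through squalene to the sterol ring. When membranes are low in sterol, SCAP carries the SREBP transcription factors from the endoplasmic reticulum to the Golgi for cleavage, and INSIG proteins hold them back when sterol is plentiful. In liver, SREBP-2 (Srebf2) acts mainly on cholesterol genes, while SREBP-1c (Srebf1) and the glucose-responsive factor ChREBP (Mlxipl) act mainly on fatty acid genes.

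Levels are log2 values of the array signal, so a difference of 1 is a 2-fold change, and a level of one gene is not set against that of another. Every test is limma's moderated test in 1 fit of all 20 arrays, with p-values adjusted by Benjamini-Hochberg over 18193 genes and a threshold of 0.05. "Rose" and "fell" are used only for genes past it. SE is the standard error of a difference, and means are given with SD and n = 5. Pearson correlation between arrays of a group ran from 0.957 to 0.988 in carcinomas, from 0.970 to 0.986 in adenomas, and was at least 0.986 in both non-tumour groups. The targeted gene Apc read 8.64 to 8.97 in untreated liver, 8.43 to 8.71 in PB liver, 10.53 to 10.97 in carcinomas and 8.79 to 9.25 in adenomas. No label says which part of Apc is removed, so its probe set checks nothing about the knockout.

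The promoters of 4 genes are shown because these genes mark the patterns described below: Hmgcs1 and Cyp51 from cholesterol synthesis, Fasn and Thrsp from fatty acid synthesis. Each sequence is the 250 bases before a RefSeq start site in GRCm38.p6, read 5′ to 3′ on the strand of the gene. The regions are chr13:119690101-119690350 on the plus strand for Hmgcs1, and on the minus strand chr5:4104698-4104947 for Cyp51, chr11:120824548-120824797 for Fasn and chr7:97417551-97417800 for Thrsp. The Fasn start site lies 619 bases inside the longest annotated span of the gene, and the other 3 lie at the annotated start. Capitals mark CCAAT, the core of an NF-Y site, on either strand (ATTGG when read on the other) and TCACNCCAC, a sterol response element.
Hmgcs1: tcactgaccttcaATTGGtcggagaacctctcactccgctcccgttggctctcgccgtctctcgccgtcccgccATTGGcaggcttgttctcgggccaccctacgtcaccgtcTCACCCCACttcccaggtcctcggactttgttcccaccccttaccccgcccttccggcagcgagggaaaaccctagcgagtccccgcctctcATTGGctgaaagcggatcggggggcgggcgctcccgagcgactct
Cyp51: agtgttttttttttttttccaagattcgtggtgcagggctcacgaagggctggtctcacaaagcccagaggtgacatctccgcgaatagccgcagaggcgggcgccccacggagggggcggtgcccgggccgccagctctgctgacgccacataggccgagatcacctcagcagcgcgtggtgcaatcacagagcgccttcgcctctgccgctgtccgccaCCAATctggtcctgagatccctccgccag
Fasn: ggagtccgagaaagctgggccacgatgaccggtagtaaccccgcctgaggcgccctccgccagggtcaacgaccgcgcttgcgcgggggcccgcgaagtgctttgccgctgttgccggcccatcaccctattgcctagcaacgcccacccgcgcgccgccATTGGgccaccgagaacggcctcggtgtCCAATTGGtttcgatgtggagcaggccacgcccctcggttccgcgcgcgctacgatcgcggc
Thrsp: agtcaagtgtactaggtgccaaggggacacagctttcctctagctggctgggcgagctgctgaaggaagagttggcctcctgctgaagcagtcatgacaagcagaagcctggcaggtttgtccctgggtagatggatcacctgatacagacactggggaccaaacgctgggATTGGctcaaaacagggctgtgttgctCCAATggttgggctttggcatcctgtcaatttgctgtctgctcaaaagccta

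The Hmgcs1 window holds 3 CCAAT matches and 1 sterol element, the Cyp51 window 1 CCAAT match, the Fasn window 3, of which an overlapping pair shares letters on opposite strands, and the Thrsp window 2. RefSeq promoter windows were found for 27 of the 31 genes, 37 windows in all, and none was used for Fdft1, Stard4, Sqle and Fdps. CCAAT was present in 64.9% of these windows and in 33.8% of all 32851 promoter windows of the same length. It was present in 76.5% of the 17 windows of cholesterol synthesis enzymes and in 62.5% of the 8 windows of fatty acid synthesis genes. By gene, 13 of the 14 enzymes with a window and 5 of 7 fatty acid genes held it in any window. No share by gene was taken over all genes. GGGCGG, an Sp1 box, was present in 67.6% of the windows of these genes and in 32.7% of all windows. The E-box CACGTG was present in 16.2% against 6.02%, and TCACNCCAC in 5.41% against 1.05%, in the genes Hmgcs1 and Mlxipl. All motifs were searched on both strands, matches of different motifs may overlap, and a match is only a run of letters.

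In non-tumour liver, none of the 30 genes passed the threshold with phenobarbital when read from the chosen probe sets. Over all genes, 0.225% were called in either direction in this comparison, 37 higher and 4 lower. The differences of the 30 genes ran from -0.30 to 0.67 with a median of 0.00, as did the median of all genes, and the smallest adjusted p was 0.46. Without adjustment, 3 of the 30 genes had a p under 0.05, beside 5.88% of all genes. These were Ebp at -0.30, Insig2 at 0.33 and Me1 at 0.67 (SE 0.21). Me1 encodes malic enzyme, which supplies NADPH for fatty acid synthesis. Its levels ran from 11.47 to 12.06 in untreated liver and from 11.95 to 12.66 in PB liver, so the groups overlapped narrowly. With array quality weights the Me1 difference was 0.65 with an adjusted p of 0.037. Thrsp, a lipogenic regulator described below, has 3 probe sets, and the dimmest, with a mean level of 7.21, rose by 0.61 in PB liver (SE 0.12, limma adjusted p = 0.031 over probe sets). The other 2 gave 0.58 and 0.78 and did not pass.

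**Figure D1:**
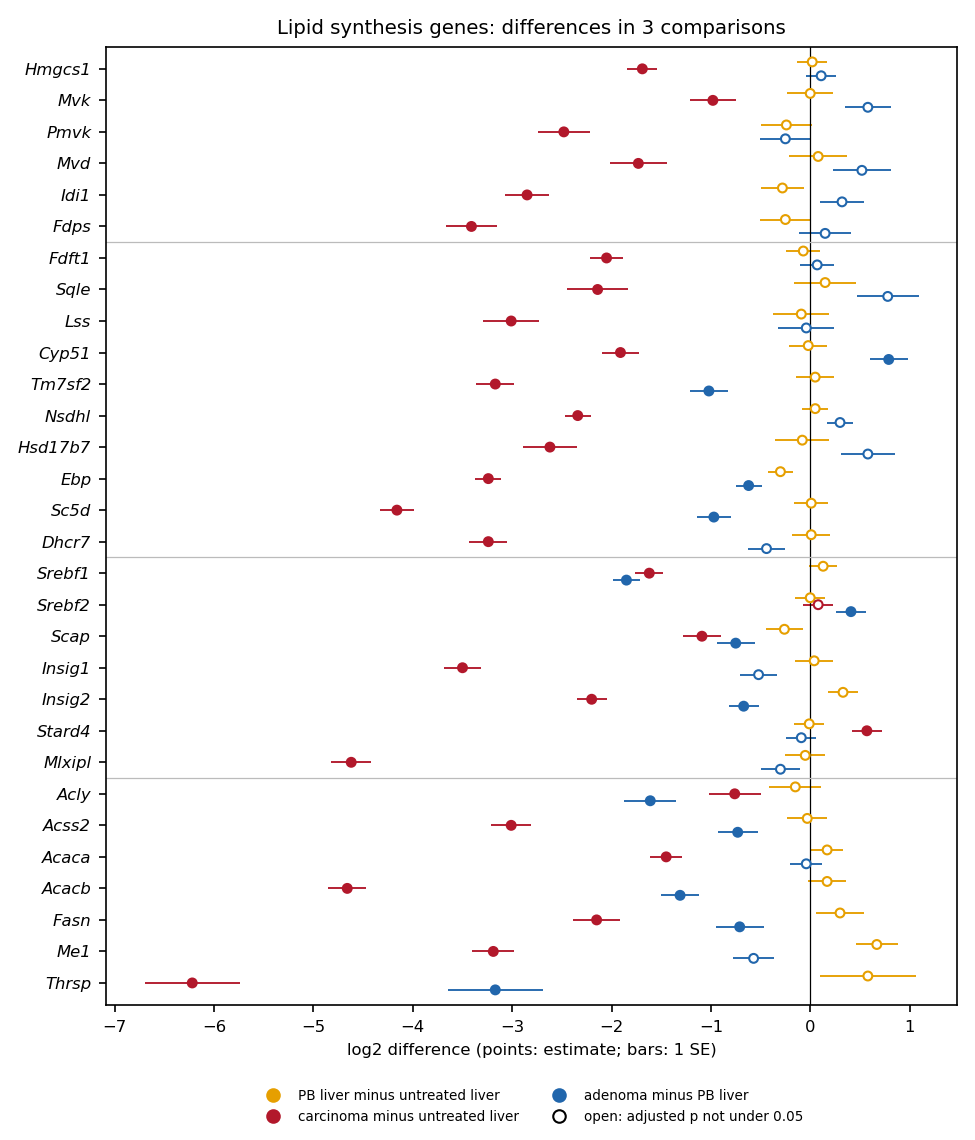
Log2 difference of each of the 30 genes (x axis; points are limma estimates, bars 1 SE) for PB liver minus untreated liver, carcinoma minus untreated liver and adenoma minus PB liver. Filled points have an adjusted p under 0.05, and the carcinoma points lie left of 0 except for Srebf2 and Stard4, while adenoma points of the cholesterol enzymes scatter around 0.

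In carcinomas, nearly the whole pathway was lower than in untreated liver. Of the 30 genes, 28 fell, 1 rose (Stard4) and 1 did not pass the test (Srebf2). Over all genes, 37.7% fell and 31.5% rose. The median difference of the 30 genes was -2.41, against -0.12 for all genes. With each array centred on its median, 4686 genes rose and 9500 fell in place of 5739 and 6850, the all-gene median was -0.34, and 28 of the 30 genes again fell. Markers of hepatocytes fell with them: 9 of 9 measured, with a median of -3.87. In these bulk samples, fewer hepatocytes and less of a transcript per hepatocyte cannot be told apart.

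In adenomas, most fatty acid synthesis genes fell. Most cholesterol synthesis enzymes did not pass the test, but neither did most genes of the table, 13692 of 18193. Against PB liver, 2 of the 30 genes rose and 11 fell, where 13.5% of all genes rose and 11.3% fell. Of the 16 cholesterol synthesis enzymes, 1 rose, 3 fell and 12 did not pass, with a median of 0.13. Of the 7 fatty acid synthesis genes, 5 fell, 2 did not pass and none rose, with a median of -0.73. The difference between these lists was not tested. The median of all genes was -0.03, and centring each array gave 1919 genes higher and 3014 lower in place of 2451 and 2050. Of 9 hepatocyte markers, 1 fell in adenomas, Cps1, from 13.93 to 9.81 (limma adjusted p = 0.0029), and their median difference was -0.01. Of the other 8, Alb, Ttr, Apoa2 and Cyp2e1 had means of 14.49 to 14.93 in both groups, near the highest value of the table, 15.1, which leaves little room to read a change. Tat went from 12.24 to 11.40 (limma adjusted p = 0.21) and F9 from 11.59 to 11.13 (limma adjusted p = 0.43), neither past the threshold.

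The mevalonate enzymes showed the contrast between the tumour groups first. All 6 fell in carcinomas, with a median of -2.10, and none passed the test in adenomas, where the median was 0.23. Fdps encodes farnesyl diphosphate synthase, which joins isoprenoid units into the precursor of squalene. Fdps read 11.94, 11.86, 12.34, 12.48 and 11.67 in untreated arrays 1 to 5 and 11.66, 11.83, 11.96, 11.49 and 12.13 in PB arrays 1 to 5. Carcinoma levels of Fdps were 8.54, 8.81, 8.77, 8.00 and 9.12, and adenoma levels were 12.37, 12.21, 11.94, 12.42 and 10.86. Every carcinoma lay below every other sample, adenoma 5 lay below all non-tumour arrays, and the other 4 adenomas lay among them. The mean of Fdps was 8.65 ± 0.41 in carcinomas and 12.06 ± 0.34 in untreated liver, a 10.6-fold fall (log2 difference -3.41, SE 0.26, limma adjusted p = 5.2e-10). In adenomas the difference from PB liver was 0.15 (SE 0.26, limma adjusted p = 0.73).

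Idi1, the isomerase that readies the isoprenoid unit for Fdps, followed the same order. Idi1 read 12.26, 11.93, 12.45, 12.42 and 12.42 in untreated arrays 1 to 5 and 11.97, 11.79, 12.03, 12.15 and 12.15 in PB arrays 1 to 5. Carcinoma levels of Idi1 were 9.60, 10.01, 9.10, 8.68 and 9.86, and adenoma levels were 12.91, 12.51, 12.36, 12.06 and 11.84. No carcinoma reached the lowest of the other groups, and the adenomas spread across and above PB liver. Idi1 fell by 2.85 in carcinomas (SE 0.22, limma adjusted p = 7e-10) and its adenoma difference was 0.32 (SE 0.22, limma adjusted p = 0.33). Hmgcs1, which makes the direct precursor of mevalonate from acetoacetyl-CoA, fell by 1.69 in carcinomas and differed by 0.11 in adenomas. The kinases Mvk and Pmvk fell by 0.98 and 2.48 in carcinomas, and the decarboxylase Mvd fell by 1.73. Their adenoma differences were 0.58 for Mvk, -0.25 for Pmvk and 0.52 for Mvd, none past the threshold.

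From squalene to the sterol ring, all 10 enzymes fell in carcinomas, with a median of -2.81 and a range from -4.16 to -1.91. In adenomas Cyp51 rose, Tm7sf2, Sc5d and Ebp fell, and the other 6 did not pass. Cyp51 encodes lanosterol demethylase, the cytochrome P450 that removes a methyl group from the newly closed ring. Cyp51 read 10.73, 10.48, 10.65, 10.83 and 10.93 in untreated arrays 1 to 5 and 10.57, 10.40, 10.85, 10.93 and 10.75 in PB arrays 1 to 5. Carcinoma levels of Cyp51 were 8.64, 9.08, 8.40, 8.79 and 9.16, and adenoma levels were 12.07, 11.94, 11.32, 11.14 and 10.98. All 5 adenomas lay above all 10 non-tumour arrays, and all 5 carcinomas lay below them. Cyp51 rose by 0.79 in adenomas (SE 0.19, limma adjusted p = 0.005), a 1.73-fold change, and fell by 1.91 in carcinomas (SE 0.19, limma adjusted p = 3.8e-08). The rise was seen in 1 of its 3 probe sets. The others gave 0.26 and 0.27 and did not pass, and with the mean of the probe sets Cyp51 differed by 0.44 with an adjusted p of 0.13.

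Sc5d, the desaturase of a late step, was the cholesterol enzyme with the largest fall in carcinomas as read from the chosen probe sets. Sc5d read 12.77, 12.73, 13.08, 13.37 and 12.88 in untreated arrays 1 to 5 and 12.80, 13.00, 13.17, 12.91 and 13.01 in PB arrays 1 to 5. Carcinoma levels of Sc5d were 9.08, 8.50, 8.92, 8.80 and 8.76, and adenoma levels were 12.23, 12.41, 11.39, 12.15 and 11.85. Here the adenomas lay below every PB array and far above every carcinoma. Sc5d fell by 4.16 in carcinomas, 17.8-fold (SE 0.17, limma adjusted p = 4.3e-14), and by 0.97 in adenomas (SE 0.17, limma adjusted p = 0.00025). All 3 probe sets of Sc5d fell in both comparisons, the others by 3.16 and 2.59 in carcinomas and by 1.62 and 1.07 in adenomas. Tm7sf2, a sterol reductase, fell by 1.02 in adenomas and 3.17 in carcinomas, and Ebp, a sterol isomerase, by 0.62 and 3.24.

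Hsd17b7 encodes a keto-reductase of the demethylation complex. Hsd17b7 read 10.74, 10.47, 10.78, 10.76 and 10.92 in untreated arrays 1 to 5 and 10.51, 10.56, 10.67, 10.73 and 10.82 in PB arrays 1 to 5. Carcinoma levels of Hsd17b7 were 7.94, 8.23, 8.41, 7.49 and 8.53, and adenoma levels were 11.76, 12.07, 11.23, 11.14 and 10.00. Adenoma 5 lay below all non-tumour arrays while the other 4 adenomas lay above all of them, and the SD of the adenomas was 0.79 against 0.12 in PB liver. Its adenoma difference was 0.58 (SE 0.27, limma adjusted p = 0.13), and without adenoma array 5 it was 0.89 with an adjusted p of 0.0027. That array is singled out for its low value, so the larger difference follows from the choice. Nsdhl, of the same complex, differed by 0.30 in adenomas and fell by 2.34 in carcinomas. Squalene epoxidase, Sqle, a control point of the pathway, differed by 0.78 in adenomas (SE 0.31, limma adjusted p = 0.074) and fell by 2.14 in carcinomas. Squalene synthase, Fdft1, fell by 2.05 in carcinomas, lanosterol synthase, Lss, by 3.01 (1.72 and 1.17 in its other probe sets), and the last reductase, Dhcr7, by 3.24. Their adenoma differences were 0.07, -0.04 and -0.44, none past the threshold. Dim probe sets of Fdft1 (mean levels 5.13 and 5.03) and Hsd17b7 (4.52) did not pass in carcinomas, at -0.22, -0.23 and -0.25. Their brighter further probe sets fell there, by 2.33 for Fdft1 and by 2.67 and 2.48 for Hsd17b7.

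**Figure D2:**
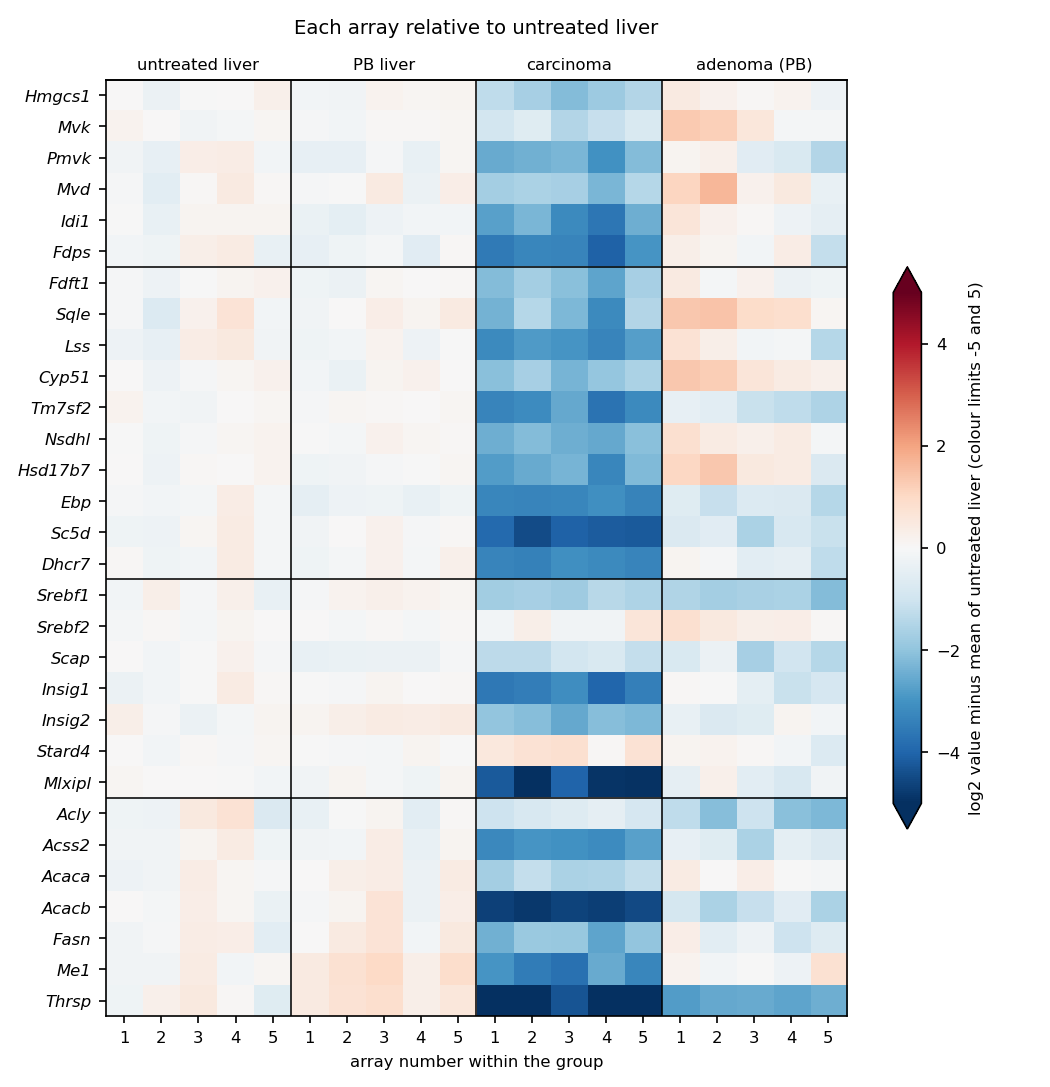
Each cell is the log2 level of a gene (rows, grouped by role) on an array (columns, grouped by sample group) minus the mean of that gene in untreated liver, with colours limited to -5 and 5. Carcinoma columns are lower in nearly every row. In adenoma columns Srebf1, Scap, Acly, Acacb, Thrsp and the cholesterol enzymes Tm7sf2, Sc5d and Ebp are low, while Sqle and Cyp51 lie above 0.

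The adenoma arrays did not behave alike. Adenoma 5 was the lowest of its group in 14 of the 16 cholesterol enzymes and in 20 of all 30 genes, and adenoma 1 was the highest in 10 of the 16. The median difference of the 16 enzymes from the PB mean was 0.65 in adenoma 1, 0.39 in adenoma 2, 0.12 in adenoma 3, 0.02 in adenoma 4 and -0.56 in adenoma 5. The hepatocyte marker median of adenoma 5 was -0.03, inside the range of -0.13 to 0.03 over the 5 adenomas. Its mean hepatocyte marker level, 12.62, was however the lowest of the group, and it was the lowest adenoma in Tat (9.79), F9 (10.70) and Ahsg (13.19). The part of this in the low cholesterol enzymes of adenoma 5 was not tested. Without adenoma 5, 7 genes rose in adenomas in place of 2: Mvk, Mvd, Sqle, Cyp51, Nsdhl, Hsd17b7 and Srebf2, with differences of 0.75, 0.77, 0.99, 0.92, 0.42, 0.89 and 0.49. Adenoma 5 was the lowest adenoma in each of these genes, so leaving it out raises their differences by construction. The count of genes that fell was then 11, with Me1 past the threshold and Fasn no longer past it.

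Fatty acid synthesis genes fell in both tumour groups. All 7 fell in carcinomas, with a median of -3.01, and 5 of 7 fell in adenomas. Thrsp, also called Spot 14, is a lipogenic regulator that responds to thyroid hormone and diet. Thrsp read 12.83, 13.28, 13.53, 13.08 and 12.44 in untreated arrays 1 to 5 and 13.50, 13.77, 13.87, 13.34 and 13.59 in PB arrays 1 to 5. Carcinoma levels of Thrsp were 6.84, 7.54, 8.73, 4.46 and 6.48, and adenoma levels were 10.25, 10.47, 10.52, 10.39 and 10.61. The 5 adenomas were nearly level with each other, far below PB liver and above every carcinoma, and the carcinomas spread widely, with carcinoma 4 lowest. Thrsp fell by 6.22 in carcinomas, 74.7-fold (SE 0.48, limma adjusted p = 6.3e-10), and by 3.17 in adenomas, 8.98-fold (SE 0.48, limma adjusted p = 7.3e-05). On the chosen probe sets these were the largest falls of the 30 genes in both comparisons. The size depended on the probe set: a further one, with a mean level of 10.35, fell by 5.85 in carcinomas and fell by 3.72 in adenomas, and the dimmest, with a mean level of 7.21, fell by 1.24 in carcinomas and by 1.57 in adenomas.

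Acacb encodes the acetyl-CoA carboxylase of the mitochondrial surface, whose product malonyl-CoA restrains fatty acid oxidation. Acacb read 9.68, 9.55, 10.01, 9.75 and 9.31 in untreated arrays 1 to 5 and 9.60, 9.80, 10.34, 9.38 and 10.01 in PB arrays 1 to 5. Carcinoma levels of Acacb were 5.01, 4.84, 5.05, 4.95 and 5.14, and adenoma levels were 8.79, 8.08, 8.50, 9.11 and 8.08. The groups formed 3 separate steps, with non-tumour liver on top, adenomas between and carcinomas lowest. Acacb fell by 4.66 in carcinomas, 25.3-fold (SE 0.19, limma adjusted p = 7.5e-14), and by 1.31 in adenomas (SE 0.19, limma adjusted p = 5.9e-05). Its dim probe set, with a mean level of 4.14, fell by 0.42 in carcinomas and differed by -0.22 in adenomas. Acaca, the cytosolic carboxylase that commits acetyl-CoA to fatty acids, fell by 1.45 in carcinomas and differed by -0.04 in adenomas (SE 0.16, limma adjusted p = 0.88).

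Acly, ATP citrate lyase, makes the cytosolic acetyl-CoA that feeds both cholesterol and fatty acid synthesis; it was added to the genes shown array by array after its values were seen, as was Cyp51. Acly read 12.52, 12.49, 13.23, 13.45 and 12.03 in untreated arrays 1 to 5 and 12.38, 12.71, 12.88, 12.22 and 12.80 in PB arrays 1 to 5. Carcinoma levels of Acly were 11.72, 11.93, 12.08, 12.29 and 11.91, and adenoma levels were 11.46, 10.60, 11.70, 10.67 and 10.51. Every adenoma lay below every carcinoma, though the nearest pair was close, and the carcinomas overlapped untreated liver. Acly fell by 1.61 in adenomas, 3.05-fold (SE 0.26, limma adjusted p = 0.00014), and by 0.76 in carcinomas (SE 0.26, limma adjusted p = 0.014). The carcinoma call was lost with quantile normalization, at -0.49 (adjusted p = 0.098), and without untreated arrays 3 and 4, at -0.36 (adjusted p = 0.21).

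Acss2, which makes acetyl-CoA from acetate, fell by 3.01 in carcinomas and by 0.73 in adenomas. The dimmest of 3 probe sets of Acss2, with a mean level of 6.52, fell by 2.11 in carcinomas and fell by 1.83 in adenomas. Fatty acid synthase, Fasn, fell by 2.15 in carcinomas and by 0.71 in adenomas (SE 0.24, limma adjusted p = 0.032). The adenoma call of Fasn was lost under 7 alternatives, with adjusted p from 0.061 to 0.091, among them leaving out PB array 2, 3 or 5 or adenoma array 2, 4 or 5. Me1 fell by 3.19 in carcinomas and differed by -0.57 in adenomas (SE 0.21, limma adjusted p = 0.058). Under 7 alternatives the adenoma difference of Me1 passed, at -0.83 to -0.57 with adjusted p from 0.0067 to 0.044. A further probe set of Me1, nearly as bright, with a mean level of 11.04 against 11.05, fell by 1.08 in adenomas (SE 0.21, limma adjusted p = 0.001 over probe sets) and by 4.59 in carcinomas.

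**Figure D3:**
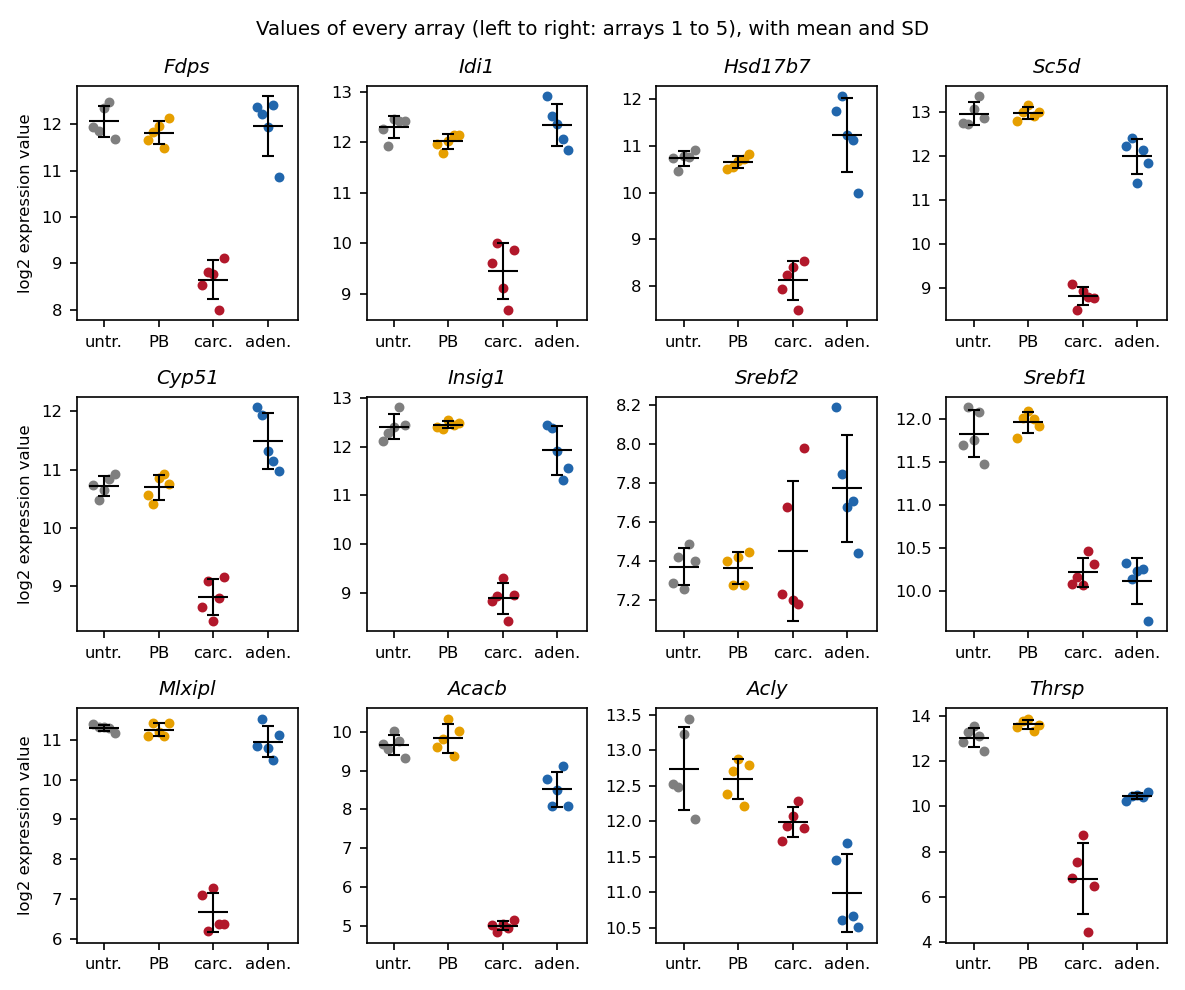
Log2 level of 12 genes on each of the 20 arrays, by group, with the mean and SD of each group. Cholesterol enzymes such as Fdps and Cyp51 are low in carcinomas alone. Sc5d, Srebf1 and Thrsp are low in both tumour groups, and Acly is lowest in adenomas.

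Among the transcription factors, Srebf1 fell by nearly the same amount in both tumour groups, unlike the cholesterol enzymes. Srebf1 read 11.70, 12.14, 11.76, 12.09 and 11.48 in untreated arrays 1 to 5 and 11.78, 12.02, 12.10, 12 and 11.92 in PB arrays 1 to 5. Carcinoma levels of Srebf1 were 10.08, 10.16, 10.07, 10.46 and 10.31, and adenoma levels were 10.32, 10.14, 10.23, 10.25 and 9.65. Both tumour groups lay below all non-tumour arrays and overlapped each other. Srebf1 fell by 1.62 in carcinomas (SE 0.14, limma adjusted p = 2.7e-09) and by 1.85 in adenomas (SE 0.14, limma adjusted p = 1.7e-08). The difference between these effects was -0.23 (SE 0.19, limma adjusted p = 0.36), so no difference was shown. Its probe set does not tell the isoforms of Srebf1 apart in the annotation used here.

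Srebf2 moved little. Srebf2 read 7.29, 7.42, 7.26, 7.49 and 7.40 in untreated arrays 1 to 5 and 7.40, 7.28, 7.42, 7.28 and 7.45 in PB arrays 1 to 5. Carcinoma levels of Srebf2 were 7.23, 7.68, 7.20, 7.18 and 7.98, and adenoma levels were 8.19, 7.85, 7.68, 7.71 and 7.44. Untreated and PB liver were tightly grouped, carcinomas 2 and 5 stood above the other carcinomas, and adenoma 5 overlapped PB liver. Srebf2 rose by 0.41 in adenomas (SE 0.15, limma adjusted p = 0.047), a call lost under 19 alternatives, with adjusted p from 0.051 to 0.17, and it differed by 0.08 in carcinomas. A further probe set of Srebf2, nearly as bright, with a mean level of 7.31 against 7.49, rose in both. It rose by 0.59 in carcinomas (limma adjusted p = 0.002 over probe sets) and by 0.88 in adenomas (limma adjusted p = 0.00031 over probe sets).

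Mlxipl, which encodes ChREBP, fell in carcinomas and not in adenomas. Mlxipl read 11.39, 11.32, 11.31, 11.28 and 11.16 in untreated arrays 1 to 5 and 11.10, 11.42, 11.20, 11.09 and 11.42 in PB arrays 1 to 5. Carcinoma levels of Mlxipl were 7.10, 6.20, 7.29, 6.39 and 6.37, and adenoma levels were 10.84, 11.53, 10.78, 10.49 and 11.12. Carcinomas lay far below all other arrays, and adenomas overlapped both non-tumour groups. Mlxipl fell by 4.62 in carcinomas, 24.6-fold (SE 0.20, limma adjusted p = 1.1e-13), and its adenoma difference was -0.30 (SE 0.20, limma adjusted p = 0.3).

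Insig1, itself a target of the SREBP proteins that it retains, was likewise low in carcinomas. Insig1 read 12.12, 12.27, 12.39, 12.80 and 12.45 in untreated arrays 1 to 5 and 12.40, 12.36, 12.54, 12.44 and 12.48 in PB arrays 1 to 5. Carcinoma levels of Insig1 were 8.84, 8.95, 9.31, 8.44 and 8.97, and adenoma levels were 12.45, 12.37, 11.91, 11.31 and 11.57. Adenomas 1 and 2 read within the PB range, and the other 3 adenomas read below it. Insig1 fell by 3.50 in carcinomas (SE 0.19, limma adjusted p = 4.4e-12) and differed by -0.52 in adenomas (SE 0.19, limma adjusted p = 0.055), a difference that passed the test under 8 alternatives. Its liver-enriched relative Insig2 fell by 2.20 in carcinomas and 0.67 in adenomas, and Scap fell by 1.09 and 0.75. A dim probe set of Scap, with a mean level of 5.22, did not pass in either. Stard4, a cytosolic sterol carrier, rose by 0.57 in carcinomas (SE 0.15, limma adjusted p = 0.0023) and differed by -0.09 in adenomas. Its 2 other probe sets did not pass in carcinomas, at -0.25 and 0.22, and with the mean of the probe sets the difference was 0.18 (adjusted p = 0.28).

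Set against each other directly, adenomas exceeded carcinomas in 25 of the 30 genes and were lower in 2, Acly at -0.99 (limma adjusted p = 0.0025) and Stard4 at -0.66. Over all genes, 33.7% were higher and 28.7% lower in adenomas. Srebf1, Srebf2 and Scap did not pass. The median difference was 2.33 for the 30 genes and 0.10 for all genes. Hepatocyte markers were higher in adenomas in 9 of 9, with a median of 3.36, and endothelial markers in 7 of 7, at 2.16. Of 7 stellate cell and fibroblast markers, 4 were lower and none higher, with a median of -1.63.

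The difference between the tumour effects, each taken against its own control, was then tested for every gene. On the chosen probe sets it passed in the positive direction for 25 of the 30 genes, including all 16 cholesterol enzymes. In the negative direction it passed for Stard4, where 23.2% of all genes passed upward and 23.5% downward. Its median was 2.45 for the 30 genes and 0.08 for all genes, and centring each array gave 5834 genes upward and 3637 downward in place of 4229 and 4269. Hepatocyte markers passed upward in 8 of 9, with a median of 3.34, and endothelial markers in 7 of 7, with a median of 2.10. Of 7 stellate cell and fibroblast markers, 4 passed downward and none upward, with a median of -1.64. The upward direction was thus not particular to lipid synthesis genes. Mlxipl had the largest value, 4.33 (SE 0.28), then Fdps at 3.56 (SE 0.37), Acacb at 3.35 (SE 0.27), Hsd17b7 at 3.20 (SE 0.38) and Sc5d at 3.18 (SE 0.23). Srebf1, Srebf2, Scap and Acly did not pass, with values of -0.23, 0.33, 0.34 and -0.85. For cholesterol enzymes, dim probe sets of Fdft1 (-0.07 and 0.08), Hsd17b7 (0.14) and Fdps (0.28) did not pass. Of the 7 fatty acid genes, 6 passed on the chosen probe sets, all but Acly. In 3 of them the dimmest probe set did not pass: Thrsp gave 3.06 on the chosen probe set and -0.33 on the dimmest (limma adjusted p = 0.11 over probe sets), Acss2 gave 2.28 and 0.28 (adjusted p = 0.69), and Acacb gave 3.35 and 0.20 (adjusted p = 0.46). The probe sets of Acly disagreed. A further one, with a mean level of 11.54, passed downward at -1.09 (adjusted p = 0.02). Of its dim probe sets, that with a mean level of 4.42 passed upward at 0.82 (limma adjusted p = 0.031 over probe sets). Another, with a mean level of 4.89, passed downward at -0.39 (limma adjusted p = 0.033 over probe sets). The 2 other probe sets of Stard4 did not pass, at 0.29 and -0.25.

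**Figure D4:**
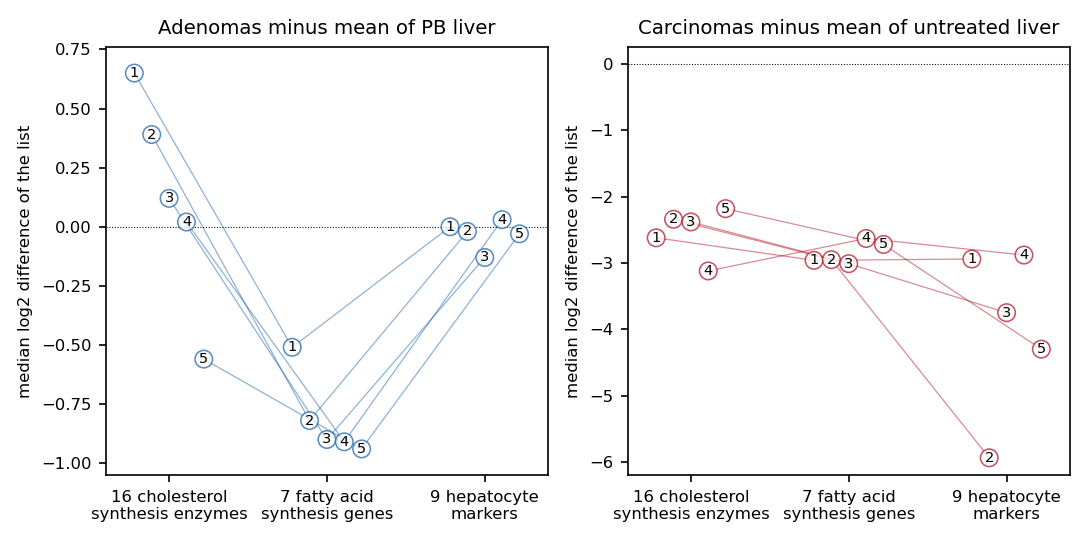
Median log2 difference of 16 cholesterol enzymes, 7 fatty acid genes and 9 hepatocyte markers on each tumour array (circled number) from the mean of its control group; lines join the values of an array and carry no order. In every adenoma the fatty acid median lies below the cholesterol median, by 0.38 in adenoma 5 and by 0.93 to 1.21 in the others, and the hepatocyte medians lie between -0.13 and 0.03, while all 3 medians are below -2 in every carcinoma.

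The cholesterol median exceeded the fatty acid median by 1.16, 1.21, 1.02, 0.93 and 0.38 in adenomas 1 to 5. Measured from the mean of their own group, the same gap ran from -0.24 to 0.36 on PB arrays and from -0.37 to 0.43 on untreated arrays. The gap of adenoma 5 was thus little above the PB range and inside the untreated range, and those of the other 4 adenomas lay above both. In carcinomas it was 0.34, 0.61, 0.63, -0.49 and 0.54, above adenoma 5 in 3 of 5, with carcinoma 4 standing apart with the lowest cholesterol median, -3.12. Carcinoma 4 had the highest hepatocyte marker median of its group, -2.88, and carcinoma 2 the lowest, -5.94, with a cholesterol median of -2.34. The order of the carcinomas also depended on the marker: carcinoma 1 was the lowest in Tat, at 6.18. In Hnf4a the lowest carcinoma value and the group median were both 8.46, so the lower carcinomas were not told apart there. Whether hepatocyte markers and cholesterol enzymes varied together was not tested.

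The median spread within a group was larger for the 30 genes together than for all genes, though not for every role. The median SD of the 30 genes was 0.462 in adenomas, 0.323 in carcinomas, 0.248 in untreated liver and 0.166 in PB liver, where the median over all genes was 0.229, 0.211, 0.166 and 0.138. Within the adenomas it was 0.659 for mevalonate enzymes and 0.483 for enzymes of the sterol ring. For the genes of sterol sensing, transport and transcription it was 0.138 in untreated liver and 0.122 in PB liver, below all genes. For fatty acid genes in carcinomas it was 0.22, close to all genes. Most of these genes read well above the array medians of 5.52 to 5.63, and no genes of like level were compared. The part of signal level in the larger spread was not tested.

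Other genes of the sterol pathway, from a list of 8 with 6 measured, were less uniform. In carcinomas 3 fell: Nr1h3, the oxysterol receptor LXR alpha, at -3.27, Msmo1, a sterol methyl oxidase, at -3.16, and Aacs, acetoacetyl-CoA synthetase, at -2.42. The other 3 rose: Ggps1, which makes the isoprenoid used for protein prenylation, at 1.64, and the proteases that cleave SREBP, Mbtps2 at 0.92 and Mbtps1 at 0.81. None of the 6 passed in adenomas, and their median there was 0.10.

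A list of 15 further lipogenic genes had 14 measured. In carcinomas 13 fell, with a median of -2.34, among them Pklr, the liver pyruvate kinase, at -4.62, Agpat2, an acyltransferase of glycerolipid synthesis, at -3.48, and Dgat2, which completes triglycerides, at -3.33. Pgd, of the pentose phosphate pathway, did not pass, at -0.11. In adenomas 6 fell and 8 did not pass, with a median of -0.39. The largest falls there were Pltp, a phospholipid transfer protein, at -1.75, Elovl5, a fatty acid elongase, at -1.45, and Lpin1, a phosphatidate phosphatase, at -0.98.

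Markers of the cell types that liver tissue can hold were read on the same arrays. The mean level of 9 hepatocyte markers lay between 13.69 and 13.85 in untreated liver, 13.55 and 13.64 in PB liver, 7.16 and 10.49 in carcinomas and 12.62 and 13.65 in adenomas. Fat cells, which express many of the lipogenic genes, had their defining marker Adipoq between 3.21 and 3.90 on all arrays, near the lowest value of the table, 2.67. All 6 measured adipocyte genes fell in carcinomas, and in adenomas Fabp4 rose by 1.59, Cidea fell by 4.47 and Retn fell by 0.52. Of 7 endothelial markers 5 fell in carcinomas and 2 rose in adenomas, and of 7 macrophage markers 4 fell in carcinomas, while in adenomas 1 rose and 3 fell. Of 7 stellate cell and fibroblast markers, 4 rose in carcinomas, Col3a1 by 3.97 and Col1a1 by 3.20 among them, and 1 fell, while in adenomas 2 rose and 3 fell. Of 5 cholangiocyte markers, Krt7 rose by 5.23 in carcinomas and Cftr fell, from 3.56 to 3.17, near the lowest value of the table. None of the 5 passed in adenomas. Of 5 lymphocyte markers 2 rose and 3 fell in carcinomas, and none passed in adenomas. Their mean level was dim, between 4.95 and 5.62 on the tumour arrays. Mixed counts are to be read beside all genes, of which 31.5% rose and 37.7% fell in carcinomas. In adenomas these shares were 13.5% and 11.3%. The part of any of these cell types in the results above was not tested.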

How the data were processed

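RNA from snap-frozen liver tissue was biotin-labelled by the Affymetrix kit for its arrays, per the labels' protocols. The authors deposited log2 values for each probe set, made with RMA (version not stated) per the submitters' processing notes. RMA corrects the background, aligns the distributions of the arrays and summarises probes, so a change shared by all genes is removed and folds of dim genes shrink. The table held 45037 probe sets on 20 arrays, with array medians between 5.52 and 5.63. Precision is limited by the number of arrays, which have no depth of reading.

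Probe sets were named from the platform annotation: 34945 had a single symbol (34741 matched by Entrez number to the RefSeq table of GRCm38.p6), 932 several and 9160 none. Each of 18193 genes was read from the probe set with the highest mean. Of the 30 genes described, 20 had several probe sets. By the name ending _x_at, 3 (Hmgcs1, Fdft1 and Hsd17b7) were read from a probe set that may bind related transcripts. Mvd and Lss were read from probe sets ending in _s_at, which this count leaves out. Groups came from the labels. One fit of 4 groups with limma 3.58.1 in R 4.3.3 (lmFit, eBayes, both directions, 16 residual and 3.21 prior degrees of freedom) gave every test, with Benjamini-Hochberg adjustment over all genes and a threshold of 0.05. The method was checked on simulated data. Tables used Python 3.11.15 with pandas 2.3.3 and plots matplotlib 3.10.9.

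The members and lists were chosen with earlier results of these data known. Values by array were given for the gene of each role with the largest difference between tumour effects, for the sterol regulators Srebf1, Srebf2 and Insig1, and for genes added after their values were seen. Other pathway and marker genes were to be named up to 3 per list and comparison, and further names were added after their values were seen. The alternatives numbered 30: other choices of probe set, a filter on dim genes (mean of 6 or less), eBayes with trend and robust settings, centring, quantile normalization, array weights, a replicate block, fits restricted to the groups compared, and arrays left out. Same-numbered arrays of different groups correlated between -0.11 and 0.13 in their deviations from group means, and numbers were not taken to pair samples. Of 5 untreated arrays, 3 correlated best with the carcinoma of their own number, and 0 to 2 of 5 did so in the other pairs of groups. For untreated liver and adenomas the mean was 0.07 for same numbers and -0.02 for other numbers. Pairing is thus not excluded.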

Additional observations from a re-analysis of the deposited data

Results flagged for a closer look

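Within groups of 5 arrays, 4 single arrays stood apart from the others of their group by Dixon's criterion (ratio above 0.71), out of 120 groups of gene and array set examined, where chance alone gives about 1 in 20. Ebp read 12.81 in untreated array 4 and 12.33 to 12.40 in the others. Srebf1 read 9.65 in adenoma array 5 against 10.14 to 10.32. Scap read 10.52 in PB array 5 against 10.21 to 10.29. Acss2 read 10.56 in adenoma array 3 against 11.42 to 11.74.

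The difference between the tumour effects (adenoma minus PB liver, less carcinoma minus untreated liver) passed limma's test for 26 genes. Diet and tumour stage cannot be told apart in these values. Hepatocyte markers passed upward in 8 of 9, with a median of 3.34, so upward values were not particular to the genes below. Among cholesterol enzymes the log2 values were Mvk 1.57, Hmgcs1 1.80, Fdft1 2.13, Tm7sf2 2.15, Pmvk 2.23, Mvd 2.25, Ebp 2.62, Nsdhl 2.64, Cyp51 2.70, Dhcr7 2.81, Sqle 2.92, Lss 2.97, Idi1 3.16, Sc5d 3.18, Hsd17b7 3.20 and Fdps 3.56. Among fatty acid genes they were Acaca 1.41, Fasn 1.43, Acss2 2.28, Me1 2.62, Thrsp 3.06 and Acacb 3.35. The dimmest probe sets of Thrsp, Acss2 and Acacb did not pass, at -0.33, 0.28 and 0.20. Dim probe sets of the cholesterol enzymes Fdft1 (-0.07 and 0.08), Hsd17b7 (0.14) and Fdps (0.28) did not pass either. For the other 4 genes the values on the chosen probe sets were Stard4 -0.66, Insig2 1.54, Insig1 2.98 and Mlxipl 4.33. The 2 other probe sets of Stard4 did not pass, at 0.29 and -0.25.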

How the results depend on the processing

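Under 30 alternatives the 150 pairs of gene and comparison gave 4470 values, of which 4395 kept direction and side of the threshold, 42 gained a call, 33 lost it and none reversed. With phenobarbital alone, array weights gave 1 gene higher (Me1). In adenomas against PB liver, the 2 genes higher became 1 with the mean of all probe sets, with trend and robust settings, with centring, with quantile normalization, with the replicate block and without untreated arrays 3 and 4, and 4 with array weights; leaving out 1 array gave 1 to 7, the 7 without adenoma 5. The genes lower there numbered 10 to 13 when 1 array was left out. Adenomas against carcinomas had 1 gene lower with the mean of all probe sets. For the difference between tumour effects, the 1 gene lower became 0 with centring and when probe sets were averaged, 2 with quantile normalization and without untreated arrays 3 and 4, and 1 to 2 when 1 array was left out. Acly was the added gene, passing under 7 alternatives, at -1.25 to -0.94. The replicate block changed no other count beyond 1.5 times. The causes were not tested. The difference between tumour effects could not be fitted from only the groups compared, since it uses all 4. Dim genes have compressed folds, so the falls of Thrsp and Acacb in carcinomas may be understated.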

Other observations

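Within each group, the array at the extreme was counted for the fatty acid and the cholesterol genes; whether the 2 lists varied together was not tested. In PB liver, array 4 was the lowest of the group in 7 of 7 fatty acid genes and in 3 of 16 cholesterol enzymes, and array 3 was the highest in 6 of 7 and in 7 of 16. Measured from the untreated mean, the fatty acid medians of arrays 4 and 3 were -0.28 and 0.67, and their cholesterol medians were -0.03 and 0.11. In untreated liver, array 3 was the highest in 5 of the 7 fatty acid genes and array 5 the lowest in 5, and array 2 was the lowest in 13 of the 16 cholesterol enzymes and array 4 the highest in 8. In carcinomas, array 4 was the lowest in 10 of the 16 cholesterol enzymes and array 5 the highest in 8. In adenomas, array 1 was the highest in 3 of the 7 fatty acid genes and in 10 of the 16 cholesterol enzymes, and array 5 was the lowest in 3 of 7 and in 14 of 16.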
